A study of Mus musculus with 11 samples.

Results

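Inflammatory and regulatory cytokines were followed at the RNA level in mouse monocytes cultured towards Langerhans cell (LC)-like cells. The set held 10 genes, found by their symbols in the deposited expression table: the interleukin-1 family genes Il1a, Il1b, Il1rn and Il18, the TNF superfamily genes Tnf and Tnfsf15, and Il6, Il10, Il12b and Il23a. All 10 were among the 21860 genes of the table, and 9 of them passed the filter on low values, which left 13095 genes for testing. Il10 was the member that did not pass.

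Monocytes from mouse bone marrow were cultured with GM-CSF (20 ng/ml) in every group, harvested on day 6 and sorted as CD11b-low EpCAM+ cells for bulk RNA sequencing. TGFβ/IL-34 cultures (n = 2) also received TGFβ (5 ng/ml) and IL-34 (8 µg/ml), and 3 further groups added to these cytokines FICZ (n = 2), Jag1 (n = 3), or Jag1 and FICZ (n = 3). The remaining sample (n = 1), here named Jag1 only, received GM-CSF and Jag1 without TGFβ or IL-34. FICZ is a ligand of the aryl hydrocarbon receptor (Ahr), described as an agonist in the paper's results and as an antagonist in the deposited design text. The paper reports that FICZ induced the Ahr target Cyp1b1 in EpCAM+ cells made in culture.

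Jag1, a ligand of Notch receptors, was supplied by the OP9 bone marrow stromal line made to express it, so that Jag1 and the presence of stroma cannot be told apart. The labels call every sample a co-culture with OP9. The methods describe cultures of monocytes alone and co-cultures on OP9 lines with and without Jag1. They do not say which of these gave the sequenced samples without Jag1. The sample descriptions carry the word Mo in the 4 samples without Jag1 and the word Jag in the 7 samples with it. What these words stand for is not stated. The summed level of 10 stroma markers was 12.8 to 38.0 normalized counts in the 4 samples without Jag1 and 419.5 to 4646 in the 7 samples with it. Replicates were not described as separate animals, so p-values measure the spread between these samples. In bulk samples fewer cells of a type and less RNA per cell cannot be told apart.

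Sample totals ran from 21310445 to 27845052 normalized counts, which the step between low values put at 20576064 to 24231587 reads. A single read was worth 0.894 to 1.15 normalized counts. Epcam, the sorting marker, was at 3952 to 14377 normalized counts in the 10 samples with TGFβ/IL-34 and at 657 in the Jag1 only sample. Cd207, which encodes the LC lectin langerin, was at 1366 to 1784 in TGFβ/IL-34 + Jag1 and at 6.21 to 157 in the other 7 samples with TGFβ/IL-34. Because the cells were sorted on EpCAM, Epcam RNA is no separate support for the label of LC-like cells. Cd207, which was not a sorting marker here, was high in 1 group.

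Interleukin-1α and interleukin-1β are alarm cytokines that signal through the same receptor, and the protein made from Il1rn binds that receptor without activating it. Interleukin-6, TNF and the IL-12 family are made by activated myeloid cells and direct fever, acute-phase responses and T cell differentiation, whereas interleukin-10 restrains them. In the epidermis such cytokines drive LC migration to lymph nodes and shape the T cell responses that LCs start.

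The promoters of Il1b, Il1rn and Il6 are shown because these 3 genes moved with Jag1 or FICZ at high levels. Each sequence covers the 250 bases before the start of the Ensembl canonical transcript (GRCm39), 5′ to 3′ on the strand of the gene. Il1b lies at chr2:129213060-129213309 on the minus strand, Il1rn at chr2:24226615-24226864 on the plus strand, and Il6 at chr5:30217862-30218111 on the plus strand. Capitals mark letters that match 1 of 3 motifs searched on both strands: the Ahr core GCGTG, the RBPJ core TGGGAA (RBPJ is the DNA-binding partner of Notch), and the NF-κB motif.
Il1b: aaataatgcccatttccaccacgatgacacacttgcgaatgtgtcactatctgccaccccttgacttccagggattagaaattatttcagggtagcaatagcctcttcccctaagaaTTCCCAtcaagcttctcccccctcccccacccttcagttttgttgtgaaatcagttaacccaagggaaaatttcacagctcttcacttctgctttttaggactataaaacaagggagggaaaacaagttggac
Il1rn: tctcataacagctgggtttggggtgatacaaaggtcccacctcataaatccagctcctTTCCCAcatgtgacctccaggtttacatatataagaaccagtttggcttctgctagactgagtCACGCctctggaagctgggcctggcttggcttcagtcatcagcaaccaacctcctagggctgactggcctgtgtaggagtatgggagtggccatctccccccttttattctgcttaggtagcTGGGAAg
Il6: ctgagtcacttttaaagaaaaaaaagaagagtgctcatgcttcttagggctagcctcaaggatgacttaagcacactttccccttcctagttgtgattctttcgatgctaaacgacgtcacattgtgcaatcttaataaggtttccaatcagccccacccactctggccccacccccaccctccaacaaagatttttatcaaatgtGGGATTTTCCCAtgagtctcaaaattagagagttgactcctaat
The Il1b window held 1 RBPJ core match and no Ahr core. Il1rn held 2 RBPJ core matches and 1 Ahr core match. In Il6 the RBPJ core match overlapped the single NF-κB match, so that both are drawn as 1 run of capitals.

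Over all 10 members, 2 windows held an Ahr core (Il1rn and Il18), 4 an RBPJ core (Il1b, Il1rn, Tnfsf15 and Il6) and 3 an NF-κB match (Tnfsf15, Il6 and Il23a). Among 21757 windows of the same length before protein-coding genes, these motifs were found in 31.2%, 22.7% and 4.23%. No match to the 3 motifs was found in the windows of Il1a, Tnf, Il10 and Il12b. A match is a description of letters and not of binding.

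**Figure D1:**
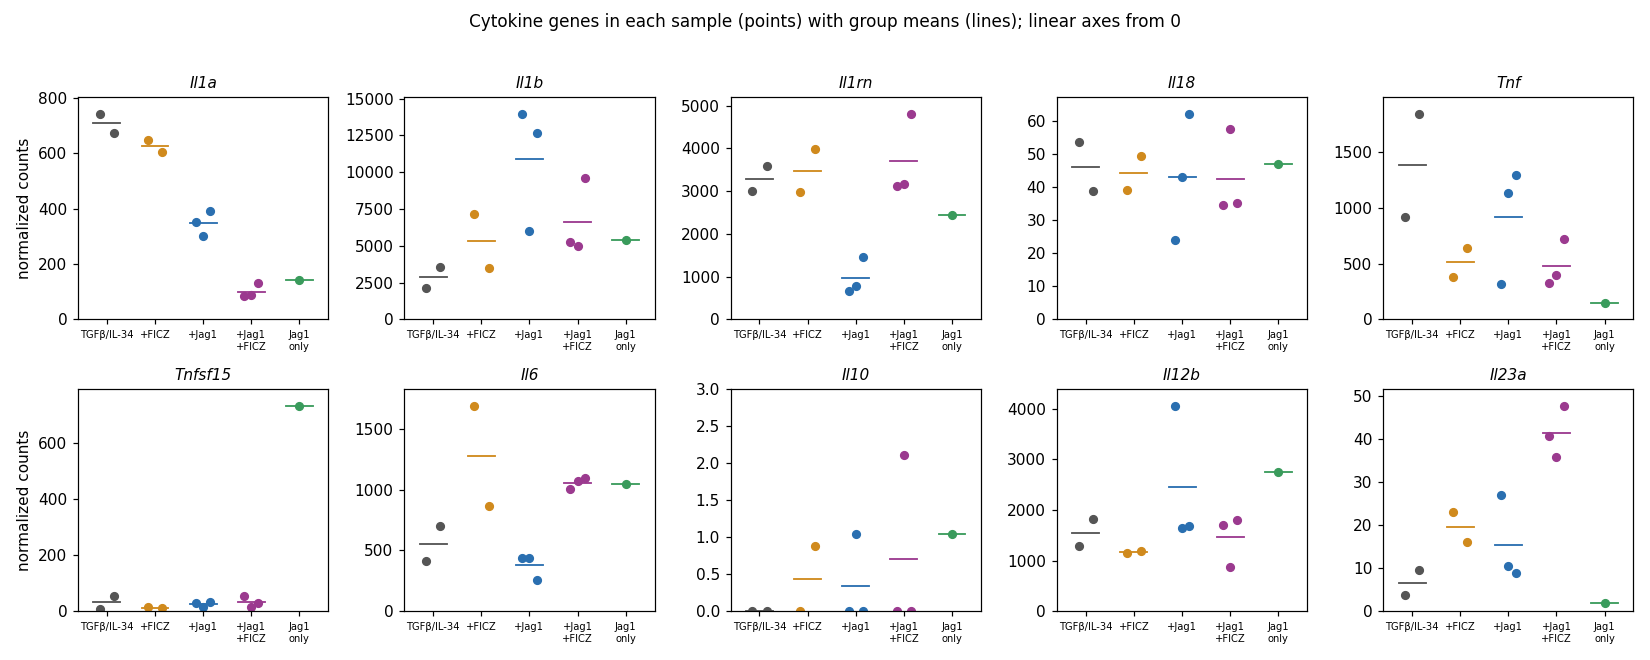
Normalized counts (linear vertical axes from 0) of the 10 cytokine genes in the 5 culture groups, with a point for each of the 11 samples and a line at each group mean. Il1rn is low in all 3 TGFβ/IL-34 + Jag1 samples (675 to 1464), Il1a falls to 82.9 to 129.9 with Jag1 and FICZ, and Tnfsf15 stands at 734 in the Jag1 only sample.

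Il1a was called in 4 of the 6 comparisons, more than any other member, and was lower in each. It encodes interleukin-1α, which is active as a precursor and can act from the nucleus or the cell surface, and lies on chromosome 2 (ENSMUSG00000027399, chr2:129140291-129152098, minus strand), 54392 bases from Il1b. The 2 TGFβ/IL-34 samples had 742 and 673 normalized counts (707 ± 49.2, mean ± SD, n = 2) and the 2 samples with FICZ 648 and 605 (626 ± 30.5, n = 2). With Jag1 the values were 350.1, 302 and 389 (347 ± 43.8, n = 3), and with Jag1 and FICZ 82.9, 88.9 and 129.9 (101 ± 25.6, n = 3). The order of the 4 groups was thus TGFβ/IL-34, FICZ, Jag1, and Jag1 with FICZ, and no sample of 1 group overlapped another. The first 2 groups in that order were nevertheless not separated by the test, with an adjusted p of 0.712 (limma).

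Il1a fell by 1.03 on the log2 scale with Jag1 (SE 0.250, adjusted p = 0.0360, limma). The fall was steeper when FICZ was present, with a log2 fold change for Jag1 of -2.65 (SE 0.250, adjusted p = 0.00175). In Jag1 cultures FICZ lowered Il1a further, at a log2 difference of -1.80 (SE 0.223, adjusted p = 0.000475). Jag1 and FICZ together against neither gave -2.83 (SE 0.250, adjusted p = 0.00108), a 7.10-fold lower level. The interaction, the difference between the FICZ effects with and without Jag1, was -1.62 (SE 0.353) and missed the threshold (adjusted p = 0.0593). It passed with the replicate number as a block (adjusted p = 0.0496). That number joined TGFβ/IL-34 samples to samples of other groups that carry a different experiment code on the labels.

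The smallest of these differences rested on every sample. The adjusted p for Jag1 without FICZ was 0.259 or 0.213 without TGFβ/IL-34 replicate 1 or 2, and to 0.0843, 0.102 or 0.0579 without TGFβ/IL-34 + Jag1 replicate 1, 2 or 3. The Jag1 difference with FICZ lost its call when only its own groups were fitted (adjusted p = 0.0739) and with sample weights (0.346).

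Il1b, which encodes the precursor of interleukin-1β, was the most abundant member per kilobase of canonical transcript in TGFβ/IL-34 cells. At chr2:129206490-129213059 (ENSMUSG00000027398, minus strand) it had 2155 and 3577 normalized counts in TGFβ/IL-34 (2866 ± 1006, n = 2) and 7167 and 3499.7 with FICZ (5333 ± 2593, n = 2). Jag1 samples had 13974, 6029 and 12669.9 (10891 ± 4261, n = 3), and samples with Jag1 and FICZ had 5270.2, 4958 and 9592 (6607 ± 2589.8, n = 3). All 3 Jag1 samples lay above both TGFβ/IL-34 samples. The groups with FICZ overlapped each other, and each overlapped the Jag1 group.

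Il1b rose with Jag1 in the absence of FICZ, by 1.88 on the log2 scale (SE 0.448, adjusted p = 0.0338, limma), or 3.68-fold. With Jag1 and FICZ together it was 1.18 (SE 0.448) above TGFβ/IL-34 and did not pass (adjusted p = 0.191). The interaction was -1.55 (SE 0.634, adjusted p = 0.236). The rise with Jag1 lost its call without TGFβ/IL-34 replicate 1 (adjusted p = 0.281) or 2 (0.111) and without TGFβ/IL-34 + Jag1 replicate 1 (0.114) or 3 (0.101).

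Il1rn, which encodes the interleukin-1 receptor antagonist, moved in the opposite direction. It lies on the same chromosome, at chr2:24226865-24241506 (ENSMUSG00000026981, plus strand). Its values were 3005 and 3578 in TGFβ/IL-34 (3291 ± 405, n = 2) and 2982 and 3977 with FICZ (3479.6 ± 703, n = 2). They were 675, 782 and 1464 with Jag1 (974 ± 428, n = 3), and 3118, 3172 and 4810.2 with Jag1 and FICZ (3699.9 ± 962, n = 3). The Jag1 group stood below every other sample, while the other 3 groups overlapped one another.

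Il1rn fell by 1.84 on the log2 scale with Jag1 (SE 0.324, adjusted p = 0.00805, limma), or 3.57-fold. FICZ in Jag1 cultures raised it by 1.98 (SE 0.290, adjusted p = 0.00117), or 3.94-fold. The interaction was 1.91 (SE 0.459, adjusted p = 0.0806). It passed with the replicate number as a block (adjusted p = 0.0167), which for TGFβ/IL-34 did not follow the experiment codes of the labels. The fall lost its call without TGFβ/IL-34 replicate 1 (adjusted p = 0.0553) or 2 (0.111). The rise with FICZ passed in each alternative fit, with adjusted p values from 7.42e-05 to 0.00659.

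The ratio of Il1b to Il1rn within a sample set the agonist against its antagonist. It is a ratio of normalized counts, not per length, and serves only to compare samples. It was 0.717 and 1.00 in TGFβ/IL-34, and 2.40 and 0.880 with FICZ. With Jag1 it was 20.7, 7.71 and 8.65, and with Jag1 and FICZ it was 1.69, 1.56 and 1.99. The 3 Jag1 samples had the highest ratios of all 11 samples, and the Jag1 only sample, at 2.23, did not share them.

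As a log2 ratio of antagonist to agonist, Jag1 without FICZ gave a difference of -3.72 (exact permutation test, two-sided p = 0.1). In Jag1 cultures FICZ gave 2.68 (exact permutation p = 0.1), and Jag1 with FICZ against TGFβ/IL-34 gave -1.04 (exact permutation p = 0.1). In these comparisons 0.1 is the smallest p that the exact test allows. FICZ without Jag1 gave -0.78 (exact permutation p = 0.667, smallest possible 0.333). Jag1 in the presence of FICZ gave -0.26 (exact permutation p = 0.8), and this sign turned to 0.47 without TGFβ/IL-34 + FICZ replicate 2.

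**Figure D2:**
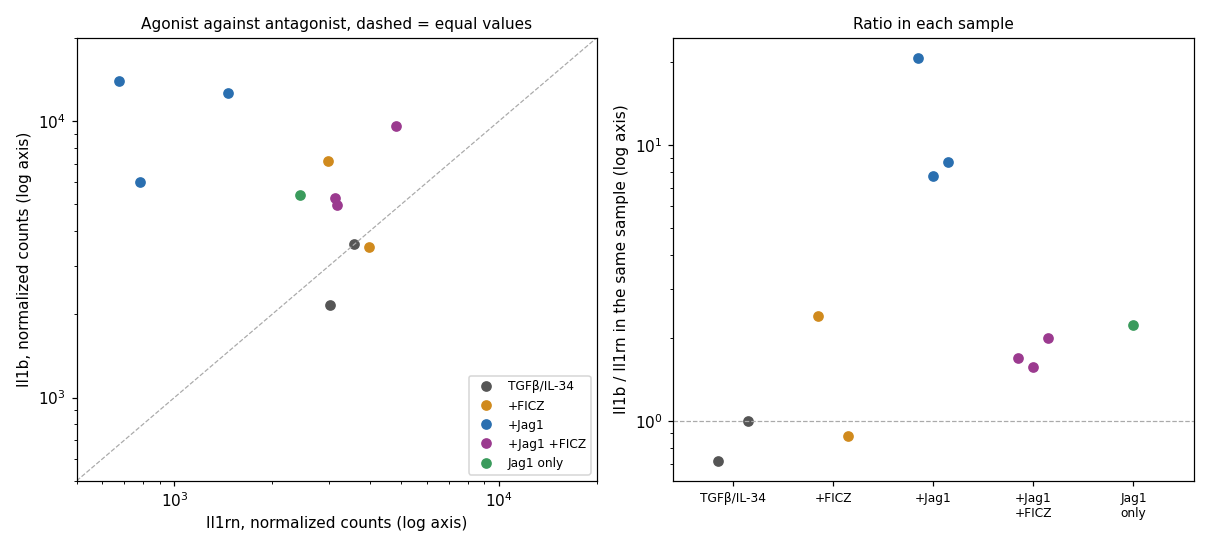
Left, Il1b against Il1rn in each of the 11 samples (normalized counts, log axes) with a dashed line at equal values. Right, the ratio of Il1b to Il1rn by group (log axis): the 3 TGFβ/IL-34 + Jag1 samples reach 7.71 to 20.7, and all other samples stay at or under 2.40.

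Il18, whose product is matured by the same caspase as interleukin-1β, was low and flat. At chr9:50466081-50493633 (ENSMUSG00000039217, plus strand) it had 24.0 to 62.3 normalized counts over the 10 samples with TGFβ/IL-34, with group means from 42.5 to 46.3. The groups overlapped, and adjusted p ran from 0.905 to 0.969 over the 6 comparisons (limma). The 95% interval of its log2 difference was narrowest for FICZ with Jag1, at -0.90 to 0.98, and widest for the interaction, at -1.39 to 1.57.

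Il6 was higher wherever FICZ was given, although only the comparison within Jag1 cultures passed. The gene encodes interleukin-6, a cytokine of the acute-phase response and of Th17 differentiation, at chr5:30218112-30224979 (ENSMUSG00000025746, plus strand). Values were 413 and 699 in TGFβ/IL-34 (556 ± 203, n = 2) and 1687 and 863 with FICZ (1275 ± 583, n = 2). With Jag1 they were 440.5, 438 and 260.2 (379.5 ± 103, n = 3), and with Jag1 and FICZ 1002, 1069 and 1097 (1056 ± 48.9, n = 3). The 5 FICZ samples all lay above the 5 samples with TGFβ/IL-34 and no FICZ. TGFβ/IL-34 and Jag1 overlapped, as did the 2 FICZ groups.

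In Jag1 cultures Il6 rose with FICZ by 1.51 on the log2 scale (SE 0.306, adjusted p = 0.00667, limma), or 2.86-fold. Without Jag1 the FICZ difference was 1.17 (SE 0.375, adjusted p = 0.285). This second difference was 1.65 when TGFβ/IL-34 + FICZ replicate 2 was left out. That fit left 1 FICZ sample without Jag1, from another flow cell than both TGFβ/IL-34 samples. Jag1 and FICZ together against TGFβ/IL-34 gave 0.97 (SE 0.342, adjusted p = 0.157). Stroma can also make interleukin-6. The 3 samples with Jag1 and FICZ had summed stroma markers of 744, 1765 and 4646 beside Il6 values of 1002, 1069 and 1097. In TGFβ/IL-34 + Jag1 the sums were 606, 1086 and 420 beside 440.5, 438 and 260.2. In TGFβ/IL-34 + FICZ they were 38.0 and 23.4 beside 1687 and 863. The part of stroma in the rise was not tested.

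Il10, the regulatory cytokine of the set, was at or near 0 (ENSMUSG00000016529, chr1:130947581-130952711, plus strand). It was listed at 0 in 7 of 11 samples, and the other values were 0.888 in 1 FICZ sample, 1.05 in 1 Jag1 sample, 2.11 in 1 sample with both, and 1.04 in the Jag1 only sample. All lay under the level of 3 reads, 2.68 to 3.45 normalized counts depending on the sample, and a count of 0 allows a level up to that floor. No difference in Il10 was detectable at this depth, and no fold was computed.

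Il12b encodes the p40 subunit that interleukin-12 and interleukin-23 share (ENSMUSG00000004296, chr11:44290808-44305505, plus strand). It had 1292 and 1816 normalized counts in TGFβ/IL-34 (1554 ± 370.3, n = 2) and 1156 and 1195 with FICZ (1176 ± 27.3, n = 2). Jag1 samples had 4059.7, 1637 and 1688 (2462 ± 1384, n = 3), and samples with Jag1 and FICZ had 1706, 874 and 1812 (1464 ± 514, n = 3). Replicate 1 of TGFβ/IL-34 + Jag1 stood apart from the other 2 samples of its group. Adjusted p ran from 0.264 to 0.928 over the 6 comparisons, with 95% intervals between -1.62 and 1.48 on the log2 scale.

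Il23a encodes p19, the subunit particular to interleukin-23, and was far lower than its partner. At chr10:128132008-128134621 (ENSMUSG00000025383, minus strand) it had 3.80 and 9.57 normalized counts in TGFβ/IL-34 (6.69 ± 4.08, n = 2) and 23.1 and 16.0 with FICZ (19.5 ± 5.00, n = 2). Values were 27.0, 10.4 and 8.91 with Jag1 (15.4 ± 10.03, n = 3), and 40.6, 35.7 and 47.7 with Jag1 and FICZ (41.4 ± 6.00, n = 3). The samples with both additions lay above all others, and those with neither overlapped the Jag1 group.

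With Jag1 and FICZ together Il23a rose by 2.56 on the log2 scale (SE 0.613, adjusted p = 0.0446, limma), or 5.91-fold on the scale of log2(value + 1). Both TGFβ/IL-34 values were under 10, and replicate 1, at 3.80, was near the level of 3 reads in that sample (2.86). The size of this fold is therefore uncertain. FICZ differences were 1.50 (SE 0.672, adjusted p = 0.285) without Jag1 and 1.52 (SE 0.548, adjusted p = 0.0864) with Jag1. The call for both together was at the edge of the threshold. It was lost without TGFβ/IL-34 replicate 1 (adjusted p = 0.377) or 2 (0.114) and without replicate 1, 2 or 3 of the group with both (0.138, 0.130 and 0.125). The FICZ difference in Jag1 cultures passed without TGFβ/IL-34 + Jag1 replicate 1 (1.98, adjusted p = 0.0406).

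Per kilobase of canonical transcript, the TGFβ/IL-34 means of p40 and p19 were 600.4 and 4.88 normalized counts. With Jag1 and FICZ they were 566 and 30.2. Il12b was thus the more abundant subunit RNA in both groups.

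Tnf, the gene for the founding member of the TNF superfamily, was variable within groups. At chr17:35418357-35420983 (ENSMUSG00000024401, minus strand) it had 919.9 and 1846 normalized counts in TGFβ/IL-34 (1383 ± 655, n = 2) and 381 and 642 with FICZ (511 ± 185, n = 2). Jag1 samples had 319, 1137 and 1297 (917 ± 524, n = 3), and samples with Jag1 and FICZ had 326, 398 and 725 (483 ± 213, n = 3). Both TGFβ/IL-34 samples lay above all 5 FICZ samples, and the Jag1 group spanned both. Jag1 and FICZ together gave a log2 difference of -1.52 (SE 0.594) with an adjusted p of 0.207 (limma). Over the 6 comparisons adjusted p was 0.207 to 0.917.

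Tnfsf15 encodes TL1A, a ligand that costimulates T cells and innate lymphoid cells (ENSMUSG00000050395, chr4:63642840-63663442, minus strand). In the 10 samples with TGFβ/IL-34 it was low, from 10.1 to 56.8 normalized counts. Group means were 32.7 ± 32.1 in TGFβ/IL-34 (n = 2), 14.0 ± 0.388 with FICZ (n = 2), 26.9 ± 9.79 with Jag1 (n = 3) and 34.3 ± 20.5 with both (n = 3). Both FICZ samples lay just under all samples of the Jag1 groups, and the TGFβ/IL-34 samples spanned them. No comparison passed, with adjusted p from 0.368 to 0.971 over the 6 (limma).

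Tnfsf15 was at 734 in the Jag1 only sample, 12.9-fold over the highest other value. Of all 13095 genes, 3.31% were more than 2-fold above the highest other sample there. Tnf, at 146, was 2.18-fold under the lowest other sample. Il23a was listed lowest there, at 2.08, which is under the level of 3 reads in this sample (3.11), so no fold is given. Those 3 of the 10 members lay outside the range of the other samples, against 38.2% of the tested genes, 20.1% above and 18.1% below. The remaining members were within that range, with Il1a at 142, Il1b at 5423, Il1rn at 2432, Il18 at 47.0, Il6 at 1048, Il10 at 1.04 and Il12b at 2753. This sample has no replicate, so no test was made. Its low Epcam stands beside these values, and its part in them was not tested.

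Jag1 without FICZ changed 3 of 9 tested members, 1 higher (Il1b) and 2 lower (Il1a and Il1rn), where 6.6% of all genes were called, 2.64% higher and 3.96% lower. FICZ in Jag1 cultures also changed 3 of 9, with Il1rn and Il6 higher and Il1a lower, where 17.7% of all genes were called, 10.9% higher and 6.71% lower. Jag1 and FICZ together against TGFβ/IL-34 changed 2 (Il23a higher and Il1a lower), against 4.48% of all genes, 3.12% higher and 1.37% lower. Jag1 in the presence of FICZ changed 1, Il1a, which was lower, against 2.02% of all genes in either direction and 0.603% lower.

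FICZ without Jag1 changed 0 of 9 members by limma, with 2 (Il6 and Il23a) at an unadjusted p under 0.05, and 0.0229% of all genes were called. The interaction called 0 of 9 by limma, with 3 (Il1a, Il1b and Il1rn) at an unadjusted p under 0.05, against 1.39% of all genes. The number of members called for the interaction depended on the fit. It was 2 (Il1a and Il1rn) with the replicate number as a block, which joined different experiment codes for TGFβ/IL-34. Without TGFβ/IL-34 + Jag1 replicate 3 it was 1 (Il1rn, adjusted p = 0.0316). The share of all genes called in these fits is not set beside these counts, so they are not a result about the members.

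Median log2 differences of the 9 members were small beside these single genes. They were -0.18 for Jag1 without FICZ, -0.05 for FICZ without Jag1, 0.14 for both together, 0.04 for FICZ with Jag1 and 0.07 for Jag1 with FICZ. The corresponding medians over all tested genes lay between -0.02 and 0.05. Members were called in both directions in 3 comparisons, and the comparisons share their control samples.

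**Figure D3:**
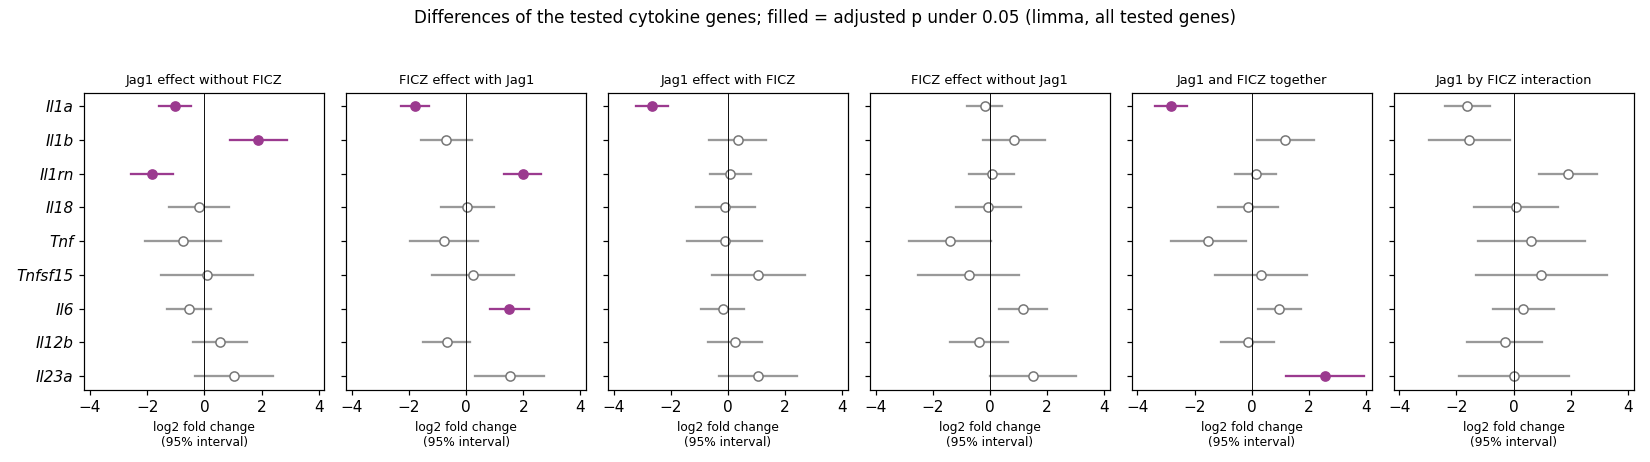
Log2 fold changes (points) with 95% intervals (bars) of the 9 tested cytokine genes in 6 comparisons by limma on log2(value + 1), filled where the adjusted p was under 0.05. Filled points are Il1a, Il1b and Il1rn for Jag1 without FICZ, Il1a, Il1rn and Il6 for FICZ with Jag1, Il1a for Jag1 with FICZ, and Il1a and Il23a for both together.

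Genes with the closest profiles over the 11 samples were found by the root mean square difference of centred log2 values, as a description. For Il1rn these were Ncaph (0.274) and Cntln (0.296), and for Il6 Ndufa4 (0.239) and Lime1 (0.261). Il1b was closest to Csta2 (0.328) and Mif (0.357), and Il1a to Mx2 (0.414) and Stard9 (0.528). Il23a was closest to Stfa1 (0.609) and Aldoa (0.613). Csta2 and Stfa1 belong to the stefin multigene family and Mif has near-identical pseudogenes, so that their reads may have been split among copies.

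Of 14 tested receptors and regulators of interleukin-1 and interleukin-18, 2 rose with FICZ in Jag1 cultures and none fell, where 10.9% of all genes were called higher and 6.71% lower. In the other 5 comparisons limma called 0 of 70 tests, with 10 at an unadjusted p under 0.05. Il1rl1, the interleukin-33 receptor, was at 7.04 to 46.2 normalized counts with Jag1 and 198 to 286 with Jag1 and FICZ (log2 fold change 3.73, SE 0.713, adjusted p = 0.00502). Il18rap, the accessory chain of the interleukin-18 receptor, was at 428 to 761 and 1196 to 1266 (0.99, SE 0.295, adjusted p = 0.0437).

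Inflammasome genes, whose products mature and release interleukin-1β and interleukin-18, were lower with FICZ in Jag1 cultures for 3 of 12 tested members, where 6.71% of all genes were called lower. The sensor Nlrc4 was at 298 to 501 with Jag1 and 68.8 to 97.6 with Jag1 and FICZ (-2.31, SE 0.362, adjusted p = 0.00168). The sensor Nlrp3 was at 3842 to 6712 and 1697 to 2324 (-1.33, SE 0.332, adjusted p = 0.0197). The pore-forming Gsdmd was at 1163 to 1661 and 819.8 to 957 (-0.61, SE 0.168, adjusted p = 0.0313). Nlrc4 (-1.67, adjusted p = 0.0466) and Gsdmd (-0.80, adjusted p = 0.0413) also fell with both additions against TGFβ/IL-34. Of 6 further IL-1 family ligand genes in the table, 1 was tested, and limma called it in 0 of 6 comparisons, with 1 at an unadjusted p under 0.05.

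Signalling genes of interleukin-6 and interleukin-10 included 2 suppressors of cytokine signalling that moved in opposite directions. Socs3, which dampens interleukin-6 signalling, was at 10760.4 and 11828 in TGFβ/IL-34 and at 24878 to 30471 with Jag1 (1.32, SE 0.254, adjusted p = 0.0127). With Jag1 and FICZ it was at 6431 to 10599.8 (-1.81 against Jag1, SE 0.227, adjusted p = 0.000496). Socs1 was at 3897 and 4465 in TGFβ/IL-34, 2188 to 2663 with Jag1 and 4189.6 to 4735 with both. It fell with Jag1 (-0.77, SE 0.163, adjusted p = 0.0190) and rose with FICZ in Jag1 cultures (0.89, SE 0.146, adjusted p = 0.00213).

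The interleukin-6 receptor gene Il6ra fell with FICZ in Jag1 cultures, from 864 to 1898 to 292 to 674 (-1.76, SE 0.508, adjusted p = 0.0376). Stat3, the transcription factor downstream of both cytokines, was at 4396 and 7007 with FICZ and at 11422 to 12955 with Jag1 and FICZ (1.15, SE 0.210, adjusted p = 0.0260). Of the 9 genes tested in this list, 2 were called for Jag1 without FICZ, 3 for FICZ with Jag1 and 1 for Jag1 with FICZ, where 6.6%, 17.7% and 2.02% of all genes were called.

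Partners and receptors of the IL-12 family rose with FICZ in Jag1 cultures for 4 of 6 tested genes, where 10.9% of all genes were called higher. Among the 4, Il27 passed the filter only through the group with Jag1 and FICZ, so its call is no support. Il12rb1, the chain that the interleukin-12 and interleukin-23 receptors share, was at 0, 3.86 and 3.63 with Jag1 and 195 to 248 with Jag1 and FICZ (adjusted p = 8e-05). Its Jag1 values lay near the level of 3 reads, so no fold is given. Stat4, which transmits interleukin-12 signals, was at 1454 to 2440.4 and 5144 to 5793 (1.50, SE 0.309, adjusted p = 0.00743). Ebi3, a subunit of interleukin-27, was at 474 to 729 and 1288 to 1445 (1.22, SE 0.252, adjusted p = 0.00759).

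The remaining gene was Il27, named after its values were seen, with a mean of 0 with Jag1 and 27.2 with both (adjusted p = 0.000506). Its mean was at most 6.39 in the other groups. Il12rb1 and Il27 were also the 2 genes of this list that fell with Jag1 in the absence of FICZ, again chosen for mention after their values were seen. Both additions against TGFβ/IL-34 raised Il12rb1, from 25.2 and 31.6 to 195 to 248 (2.95, adjusted p = 0.0304), and Stat4 (1.61, adjusted p = 0.0301). Il12rb2, the chain particular to the interleukin-12 receptor, rose with Jag1 in the presence of FICZ, from 485 and 1163 to 2881 to 3434 (2.06, SE 0.383, adjusted p = 0.0276).

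**Figure D4:**
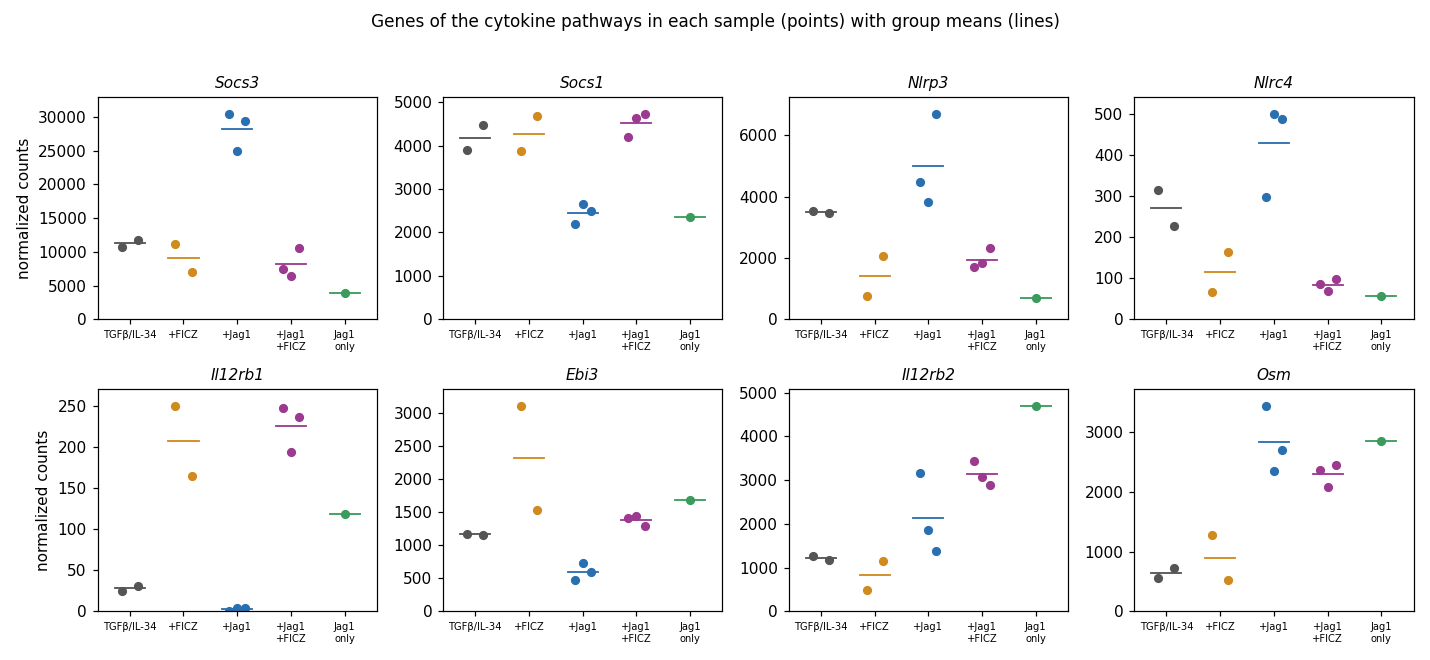
Normalized counts (linear vertical axes from 0) of 8 genes of the cytokine pathways in the 5 groups, with points for samples and lines for group means. Socs3 is highest in the 3 Jag1 samples (24878 to 30471), where Socs1 (2188 to 2663) and Il12rb1 (0 to 3.86) are low.

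Of 13 tested TNF receptors and pathway genes, 3 fell with FICZ in Jag1 cultures, where 6.71% of all genes were called lower. Limma called 0 of 65 tests elsewhere, with 14 at an unadjusted p under 0.05. These were Tnip3, an inhibitor of NF-κB signalling (-0.71, SE 0.213, adjusted p = 0.0437), the TNF receptor Tnfrsf1a (-0.64, SE 0.192, adjusted p = 0.0441), and Rhbdf2 (-0.49, SE 0.149, adjusted p = 0.0489). The product of Rhbdf2 is needed to shed TNF from the cell surface.

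Other TNF superfamily ligands comprised 15 genes, 12 of them tested. For Jag1 without FICZ 1 was called (6.6% of all genes), for both additions 1 (4.48%) and for FICZ with Jag1 3 (17.7%). Tnfsf13b, which encodes the B cell factor BAFF, fell with Jag1 from 607 and 719 to 81.6 to 301 (-1.92, SE 0.449, adjusted p = 0.0315). Tnfsf12, which encodes TWEAK, fell with FICZ in Jag1 cultures from 669.8 to 831 to 247 to 341 (-1.36, SE 0.189, adjusted p = 0.000879), and with both against TGFβ/IL-34 (-1.11, adjusted p = 0.0183). Tnfsf4, the OX40 ligand, rose with FICZ in Jag1 cultures from 196 to 464 to 446 to 629.8 (1.03, SE 0.309, adjusted p = 0.0442). Tnfsf11 also rose there, from a mean of 3.23 to 28.4 (adjusted p = 0.0213), and was named after its values were seen.

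NF-κB components and inflammatory transcription factors comprised 21 tested genes, of which 2 were called for Jag1 without FICZ (6.6% of all genes) and 1 for both additions (4.48%). Jag1 without FICZ raised Nfkbia, the NF-κB inhibitor IκBα, from 6815 and 7369 to 13547 to 15810.0 (1.07, SE 0.244, adjusted p = 0.0281). It lowered Egr2 from 745 and 954 to 108 to 176 (-2.69, SE 0.438, adjusted p = 0.00541). Nfkbiz, a co-activator of Il6 transcription, rose with both additions from 1849 and 2121 to 3100.2 to 3915 (0.78, SE 0.188, adjusted p = 0.0466).

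With FICZ in Jag1 cultures, 2 of the 21 rose and 3 fell, where 10.9% of all genes were called higher and 6.71% lower. Irf1 rose from 1158 to 1493 to 3092 to 3629 (1.39, SE 0.205, adjusted p = 0.0012). Cebpd fell from 937 to 1417 to 313 to 483 (-1.54, SE 0.237, adjusted p = 0.00152), and Maf from 170.2 to 358 to 82.9 to 112 (-1.19, SE 0.351, adjusted p = 0.0418). The other calls, named after their values were seen, were Atf3 (0.98, adjusted p = 0.00762) and Irf4 (-0.72, adjusted p = 0.0198). Of 10 genes of cytokine mRNA decay limma called 0 in the 6 comparisons (60 tests, 8 at an unadjusted p under 0.05).

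Of 28 other cytokines, 17 were tested, and 2 rose and 2 fell with Jag1 without FICZ, where 2.64% of all genes were called higher and 3.96% lower. Osm, an interleukin-6 family cytokine, rose from 566 and 733 to 2351 to 3441 (2.11, SE 0.325, adjusted p = 0.00396). Mif rose from 1546 and 1665 to 3593 to 6219 (1.66, SE 0.360, adjusted p = 0.0224). Inhba, the activin A subunit, fell from 85.4 and 278 to 30.5 to 44.2 (-1.99, SE 0.486, adjusted p = 0.0373). Il16, named after its values were seen, also fell (-1.21, adjusted p = 0.0245).

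With both additions Osm (1.83, adjusted p = 0.0136) and Mif (1.51, adjusted p = 0.0445) rose as well, and Osm rose with Jag1 in the presence of FICZ (1.48, adjusted p = 0.0496). With FICZ in Jag1 cultures 9 of the 17 rose and 1 fell, against 10.9% and 6.71% of all genes. The largest among those with a mean of at least 50 were Il22, from 2.27 to 19.8 to 41.1 to 66.4 (2.85, SE 0.650, adjusted p = 0.0126), Spp1, which encodes osteopontin (2.57, SE 0.494, adjusted p = 0.00511), and Csf1 (2.26, SE 0.468, adjusted p = 0.00763). The gene that fell was Clcf1 (-1.38, adjusted p = 0.0141), and Il13, at a mean of 0.677 with Jag1 and 32.8 with both, was the only one called for the interaction (adjusted p = 0.0445). Both were named after their values were seen, as was Il4, 1 of the 9 that rose. Il4 had a mean of 16.1 with both and at most 7.01 in the other groups. It passed the filter only through the group with both, so its call is no support. For FICZ without Jag1, limma called 0 of 115 tests in these lists, with 25 at an unadjusted p under 0.05.

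Markers of other cell types moved with the same comparisons. Of 9 tested stroma markers, 6 rose with Jag1 without FICZ and 7 with both additions, beside the changes of Il1a, Il1b, Il1rn and Il23a. Of all genes, 2.64% and 3.12% were called higher in these comparisons. Tested stroma markers other than Pdgfrb were at 0 to 10.9 normalized counts in the samples without Jag1. They passed the filter through samples with Jag1, so counts of stroma markers that rose with Jag1 followed in part from the filter. Dcn was at 0 in every sample, and Col1a1 was at 84.1 to 369 with Jag1 and 222 to 1345 with Jag1 and FICZ. The part of stroma RNA in these results was not tested.

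Of 8 tested neutrophil markers, 6 rose with FICZ in Jag1 cultures, beside the rises of Il1rn and Il6 and the fall of Il1a. Of all genes, 10.9% were called higher in this comparison. The tested markers not called were Mpo (3.42 to 12.2 with Jag1, 3.75 to 4.29 with both) and Camp (0.999 to 5.19 and 15.9 to 49.4). Their summed level was 255 to 341 normalized counts with Jag1 and 8262 to 12382 with Jag1 and FICZ, with Ly6g at 0 in both groups. Of 5 tested mast cell and basophil markers, 4 rose in the same comparison, with summed levels of 1777 to 2938 and 9205 to 12178 and Fcer1a at 0 throughout. In TGFβ/IL-34 these sums were 373 to 1582 and 6076 to 6338, and with FICZ alone 3030.1 to 4754 and 8332 to 11801.

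The same lists moved in the other comparisons that called members. Of all genes, 3.12% were called higher with both additions and 3.96% lower with Jag1 without FICZ. With Jag1 in the presence of FICZ, 2.02% were called in either direction. With both additions against TGFβ/IL-34, where Il23a rose and Il1a fell, 4 of 8 neutrophil markers (Ngp, Elane, Prtn3 and S100a9) and 2 of 5 mast cell and basophil markers (Mcpt8 and Cpa3) rose. With Jag1 without FICZ, where Il1b rose and Il1a and Il1rn fell, 3 of the 5 mast cell and basophil markers (Ms4a2, Gata2 and Cpa3) and 1 neutrophil marker (Elane) fell. With Jag1 in the presence of FICZ, where Il1a fell, 6 of 9 stroma markers, 1 neutrophil marker (Ngp) and 1 mast cell and basophil marker (Mcpt8) rose.

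Of 6 tested monocyte and macrophage markers, 3 rose with FICZ in Jag1 cultures and 1 fell, beside the rises of Il1rn and Il6. Of all genes, 10.9% were called higher and 6.71% lower there. Plac8 went from 46.3 to 108 with Jag1 to 2832 to 3417 with both (log2 fold change 5.28, adjusted p = 1.02e-05). Ly6c2 went from a mean of 17.9 to a mean of 715 (5.25, adjusted p = 1.67e-05), and Ccr2 from 15.4 to 24.2 to 76.1 to 104 (2.17, adjusted p = 0.0110). The gene that fell was Csf1r, from 13200.0 to 31394 to 3901 to 8828 (-1.88, adjusted p = 0.00583).

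With Jag1 without FICZ, 5 of the 6 fell, where 3.96% of all genes were called lower. With both additions Plac8 rose and Fcgr1 and Csf1r fell, where 3.12% of all genes were called higher and 1.37% lower. With Jag1 in the presence of FICZ Fcgr1 fell, where 0.603% of all genes were called lower. The sum over this list follows its abundant genes, Csf1r and Adgre1, and was 39888 to 40313 in TGFβ/IL-34, 17944 to 31023 with FICZ, 19959.8 to 40327 with Jag1 and 16391 to 22944 with both.

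Of 6 markers of T, B and NK cells, 2 were tested. Both rose with FICZ in Jag1 cultures, where 10.9% of all genes were called higher. In samples with TGFβ/IL-34 and no FICZ both were at 0 to 3.83 normalized counts. They thus passed the filter through other samples, so that this count followed in part from the filter. The adjusted p was 0.00165 for Cd3g and 0.00500 for Nkg7 (limma). Both also rose with the 2 additions together against TGFβ/IL-34 (adjusted p = 0.0284 and 0.0388), where 3.12% of all genes were called higher. The sum over 6 markers was 10.7 to 11.6 in TGFβ/IL-34, 71.2 to 117 with FICZ, 0 to 12.7 with Jag1 and 53.9 to 133 with both. Ncr1 was at 0 except with Jag1 and FICZ.

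LC markers summed to 769606 to 851166 with Jag1 and 295481 to 408093 with Jag1 and FICZ. That sum follows its abundant genes, Cd74 and Mfge8. In that comparison 3 of 6 tested (Cd207, Cldn1 and Mfge8) fell, where 6.71% of all genes were called lower. Id2 was not called, at 7538 to 12378 with Jag1 and 12707 to 16482 with Jag1 and FICZ. Epcam rose with Jag1 without FICZ (1.15, adjusted p = 0.0412). The part of these cell types in the cytokine differences was not tested.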

How the data were processed

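RNA from 11 samples in 5 culture groups was sequenced by the authors. Per the study's methods, salmon assigned reads to Ensembl transcripts of GRCm39, tximport summed them per gene and DESeq2 scaled the samples (versions not given in the sources used here). The deposited values are a normalized signal, gene counts divided by DESeq2 factors, not per length and not whole: over 1010 single-transcript genes, 81.2% to 98.8% of low values (up to 15 steps) were whole multiples of a read within 0.1 steps. Reads were therefore not recovered for all genes, and no count model was run.

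Values were tested as log2(value + 1) with limma (3.58.1, R 4.3.3; lmFit, eBayes with trend, 1 mean per group, all 11 samples), two-sided, with Benjamini-Hochberg adjustment over the 13095 genes with at least 10 in at least 2 samples and a threshold of 0.05. Fold changes are on that scale and understate changes of low genes. The scripts were tested on simulated data. The ratio of Il1rn to Il1b was compared by an exact permutation test.

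The members, gene lists and tests were chosen with earlier results of these data known. All members are named. From each list, the text names up to 3 called genes per comparison, those with the largest absolute log2 fold change whose higher group averaged 50 or more, and for each called member the 2 genes with the closest centred log2 profile. Groups came from the labels. The authors' sample sheet gave the same condition for 11 of 11 samples and another experiment code for 1 of them, TGFβ/IL-34 replicate 1. The sheet and the labels do not say which code is right.

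Same-numbered samples of the 2 Jag1 groups shared an experiment code, so these numbers can be read as pairs. Their deviations from the group means correlated weakly (0.153, 0.122 and 0.166), and samples with different numbers were not compared. The main fit did not use this pairing, which entered only through the blocks run as alternatives. For the other pairs of groups the correlations were under 0.1. These include TGFβ/IL-34 + FICZ and TGFβ/IL-34 + Jag1 + FICZ, whose same-numbered samples also shared an experiment code (0.059 and 0.058). Loci and promoters came from GRCm39 with GENCODE vM39, in which 21676 of 21860 gene identifiers were matched. Alternatives were normalization, pseudocount, filter, samples fitted, sample weights, blocks and leaving out each replicate.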

Additional observations from a re-analysis of the deposited data

How the results depend on the processing

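FICZ in Jag1 cultures called Il1a, Il1rn and Il6 under every alternative run, with Il23a added by sample weights and without TGFβ/IL-34 + Jag1 replicate 1. For both additions against TGFβ/IL-34, the number of members called (2) became 5 with sample weights or only the groups compared, and 1 (Il1a) with the experiment code of the labels or the flow cell as a block, without the filter, or with quantile normalization. Leaving out any 1 sample of those groups gave 1. Jag1 with FICZ called 0 members with sample weights, where 0 of all genes passed, and 0 with only the groups compared. For the interaction (0 called), quantile normalization gave 1 (Il1a), the experiment code of the authors' sheet 2 (Il1b and Il1rn), and leaving out 1 sample 0 to 3. Jag1 without FICZ (3 called) gave 0 without TGFβ/IL-34 replicate 1 or 2 and 1 (Il1rn) without TGFβ/IL-34 + Jag1 replicate 1 or 3. FICZ without Jag1 gave 1 (Il6) without TGFβ/IL-34 + FICZ replicate 2. The share of all genes called in each of these fits is not set beside the member counts. The shifts can therefore not be read as particular to the members, and their cause was not tested. The only direction among the tested ratios and called genes that turned was the log2 ratio of Il1rn to Il1b for Jag1 with FICZ, 0.47 without TGFβ/IL-34 + FICZ replicate 2, within a range of -0.98 to 0.47 when 1 sample was left out.

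With the replicate number as a block, the interaction called 2 members, Il1a (adjusted p = 0.0496) and Il1rn (0.0167). In the same fit Il23a (0.0718) lost its call and Tnf (0.0202) gained 1 for both additions together, where 2 members were called. Il1b (0.0574) lost its call for Jag1 without FICZ, where 2 were called. The block changed no other member's call: 3 were called for FICZ with Jag1, 1 for Jag1 with FICZ and 0 for FICZ without Jag1. On the labels, same-numbered samples of the 2 Jag1 groups and of TGFβ/IL-34 + FICZ share an experiment code. Their deviations correlated most between the 2 Jag1 groups. TGFβ/IL-34 samples share only a number with the other groups, so in comparisons with them the block joins different codes of the labels.

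Of 36 member tests with an unadjusted p of 0.05 or more, 23 changed sign under at least 1 alternative and 0 were called by limma under any. The block by the authors' sheet was chosen after seeing the data. Groups of 2 or 3, and a single Jag1 only sample, limit the precision. Where 1 sample remained in a group, it was assumed to vary like the others. Both samples of the second flow cell received FICZ, in replicate 1 of each FICZ group.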
